A study of Mus musculus with 4 samples.

Results

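Keratinocytes are the epithelial cells of the epidermis and hair follicle, and 57 of the 28607 cell barcodes kept from this mouse skin series met a strict rule for them. A barcode was kept with at least 500 genes, at least 1000 gene UMIs (unique molecular identifiers, 1 per captured transcript) and at most 10% mitochondrial UMIs. It was called a keratinocyte when Krt14, Krt5, Krt15, Krt1 and Krt10 together made up at least 1% of its gene UMIs, with no Ptprc UMI, less than 1% of UMIs from Col1a1, Col1a2, Col3a1 and Dcn, and fewer than 10 UMIs from Pmel, Dct, Mlana and Tyrp1. The cells were thus chosen by the measured levels of these genes, which describe the choice and are not results.

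The cells came from back skin of BALB/c mice, with skin pooled from 3 mice in each of 4 libraries, so each group was 1 library with no replicate. Cd226-/- mice, which lack the immune receptor DNAM-1 in every cell, and WT mice received 25 µg of the mutagen DMBA on shaved skin, followed by 5 µg of the tumour promoter TPA in 3 weekly applications, and their skin was taken 3 weeks after treatment. In both of these libraries sorted CD45+ (immune) and CD45- (non-immune) cells had been mixed in equal parts. Naive, untreated mice gave a CD45- and a CD45+ library, each of which mixed cells of WT and Cd226-/- mice. A difference between the WT DMBA/TPA library and the naive CD45- library therefore goes with treatment, with the mix of genotypes, with the sort and with the library itself, and these cannot be told apart.

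Basal keratinocytes divide on the basement membrane and express Krt5 and Krt14, while suprabasal cells leave it, switch to Krt1 and Krt10 and build the cornified barrier. The follicle has its own compartments, among them the Krt15-rich bulge and outer root sheath and the Krt79-marked upper follicle. After wounding or chemical irritation, keratinocytes are known to switch on the stress keratins Krt6a, Krt16 and Krt17 and gap-junction connexins, and TPA is a classic inducer of this state and of AP-1, the transcription factor made of Fos and Jun proteins.

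The Cd226-/- library gave 2 keratinocytes (0.0299% of its 6682 kept barcodes, exact 95% binomial interval 0.00363% to 0.108%), the WT DMBA/TPA library 31 (0.430% of 7212, 0.292% to 0.610%) and the naive CD45- library 24 (0.214% of 11200, 0.137% to 0.319%). The naive CD45+ library gave 0 of 3513, which allows a share of up to 0.0854% by a floor of 3 cells and 0.105% by the exact interval. All intervals cover counting error only, and the sort sets these shares, so they were not compared. The median depth was 8438 UMIs (range 3173 to 23153) in the WT DMBA/TPA cells and 4682.5 (2027 to 16775) in the naive cells, and the median mitochondrial share was 3.79% in WT DMBA/TPA and 5.64% in naive keratinocytes, against 2.45% and 2.71% in all kept barcodes of those libraries. No member barcode occurred among the kept barcodes of another library, and Scrublet, run per library, called none of the 57 a doublet. The threshold took only the most keratin-rich cells: just inside it, WT DMBA/TPA cells had 1.008%, 1.009% and 1.021% of UMIs from the 5 keratins, and just outside it 0.963%, 0.964% and 0.998%. A further 57 WT DMBA/TPA and 10 naive CD45- barcodes lay between 0.3% and 1%, and their values for many of the named genes are given below.

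Of the label's 4 markers, Krt14, Krt5 and Krt10 chose the cells and cannot check the label. Krt17, which the rule did not use, was detected in 31 of 31 WT DMBA/TPA cells and 10 of 24 naive cells. As a description, Krt14 was detected in 31 and 22 cells and Krt5 in 30 and 21. Krt10 was detected in 5 WT DMBA/TPA cells with 6 UMIs in all, against 6 naive cells with 589 UMIs. Markers of other cells were scarce, in part because the rule excluded them through Ptprc, 3 collagens and Dcn. The 12 immune genes made up 0.00206% of UMIs in WT DMBA/TPA keratinocytes and 0.000745% in naive ones, and the 12 fibroblast genes 0.0557% and 0.192%, against 6.15% and 21.5% in the other kept barcodes of the same libraries. The antibody tag for CD45 had a median of 5 and 2 UMIs in the keratinocytes, against 902 and 354 in barcodes with at least 2 Ptprc UMIs. Both sides of that comparison were chosen by Ptprc. In all other kept barcodes of the 2 libraries the medians were 8 and 1, close to those of the keratinocytes.

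**Figure D1:**
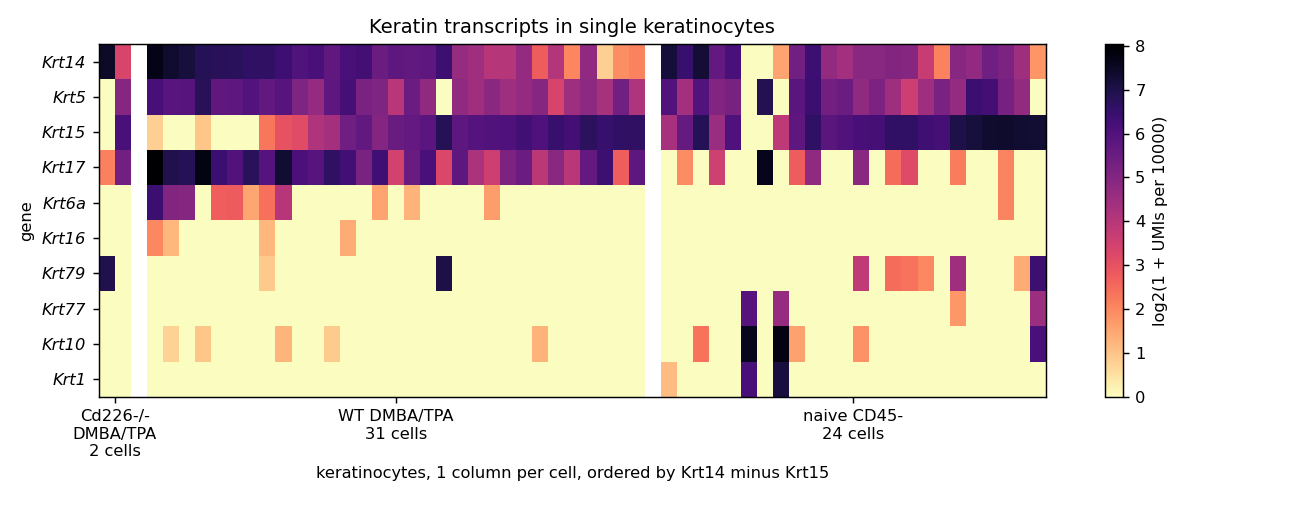
Keratin transcripts in each of the 57 keratinocytes, as log2(1 + UMIs per 10000), with 1 column per cell and 1 row per gene; cells of each library run by Krt14 minus Krt15. Krt17 is present in all 31 WT DMBA/TPA cells, Krt6a gathers at their Krt14-rich end, and Krt1 is high in only 2 naive cells.

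Differentiation was read from the share of Krt1 and Krt10 among the 5 rule keratins, as a range and not a cell type. All 31 WT DMBA/TPA cells were in the basal range (a share under 0.1), with a highest share of 0.0139, and 0 of 31 were in the suprabasal range (0.5 or more), which allows up to 9.68% by a floor of 3 cells and 11.2% by the exact interval. Of the 24 naive cells, 21 were in the basal range, 1 lay between at 0.309 and 2 were suprabasal (8.33%, interval 1.03% to 27.0%). Those 2 cells held 123 and 149 Krt1 UMIs and 322 and 235 Krt10 UMIs, and none of Krt5. In the wider set down to 0.3% keratin, 0 of 88 WT DMBA/TPA cells and 2 of 34 naive cells were suprabasal. No suprabasal programme could therefore be compared within treated skin.

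Cornified-layer genes were near 0 in both libraries, with 8 UMIs from 20 genes in WT DMBA/TPA and 20 UMIs in naive keratinocytes. Inner root sheath, matrix and shaft genes made up 0.0227% of UMIs in WT DMBA/TPA and 0.0276% in naive keratinocytes over 17 genes, against 0.00275% and 0.0149% for the cornified genes. Hoxc13, a homeobox factor of the hair shaft, had 31 UMIs in 17 WT DMBA/TPA cells and 0 in naive cells. This was 4.77-fold higher against a floor of 3 UMIs for the group. The inner root sheath, matrix and shaft list held 66 UMIs in WT DMBA/TPA and 37 in naive cells. Its genes other than Hoxc13 together thus made up a lower share of UMIs in WT DMBA/TPA than in naive keratinocytes.

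Levels were compared as UMIs summed over the cells of a library, per 1000000 gene UMIs of those cells (CPM), with an exact 95% conditional binomial interval for each ratio. With 1 library per group there is no test. Of 1143 genes with at least 50 UMIs over both libraries, 328 (28.7%) were 1.5-fold or more higher in WT DMBA/TPA keratinocytes than in naive ones and 147 (12.9%) were 1.5-fold or more lower. With median-ratio scaling in place of total UMIs, which moves every gene by 0.19 on the log2 scale, the counts were 252 higher and 212 lower. The median log2 ratio over the 1143 genes was 0.19, and list medians below are read beside it.

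The gap-junction genes Gja1 and Gjb2 stood first among those higher after DMBA/TPA. Gja1, which encodes connexin 43, had 898 UMIs in 30 of 31 WT DMBA/TPA cells (3089 CPM) and 1 UMI in 1 of 24 naive cells (7.45 CPM), 414-fold higher (interval 74.2 to 16386). The median WT DMBA/TPA cell held 32.2 Gja1 UMIs per 10000 and the highest 82.4, whereas the highest naive cell held 0.922. Gja1 is not restricted to keratinocytes: 54.3% of other kept WT DMBA/TPA barcodes and 61.9% of other naive CD45- barcodes had a UMI. Gjb2, which encodes connexin 26, had 337 UMIs in 28 WT DMBA/TPA cells (1159 CPM) and 2 UMIs in 1 naive cell (14.9 CPM), 77.8-fold higher (21.4 to 645). Here the other barcodes were low, with 2.99% and 0.0268% having a UMI. With every cell thinned to 2000 UMIs, Gja1 was detected in 90.3% of WT DMBA/TPA and 0% of naive cells, and Gjb2 in 77.4% and 0%, so both gaps remained at equal depth. Gjb6, for connexin 30, pointed the same way at low counts, with 22 UMIs in WT DMBA/TPA and 1 in naive cells (10.2-fold, 1.64 to 419).

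Because TPA acts through AP-1, the RefSeq promoters (build GRCm38.p6, 250 bases before the start) of the 12 highest and 12 lowest genes were searched for the AP-1-type motif TGANTCA, which reads the same on both strands. It occurred in 2217 of all 32851 promoters (6.75%), in 1 of 9 promoters of the genes higher after DMBA/TPA (8 of the 12 genes were in the table) and in 3 of 10 promoters of the lower genes (10 of 12 in the table). The gene with the widest ratio on each side, Gja1 (higher) and Krtdap (lower), are shown, at chr10:56377050-56377299 and chr7:30787655-30787904, both on the plus strand, with the motif in capitals. Its first base lies at -19 in Gja1 and at -81 in Krtdap, counted from the start site. A match describes these letters and is not a binding site.
Gja1: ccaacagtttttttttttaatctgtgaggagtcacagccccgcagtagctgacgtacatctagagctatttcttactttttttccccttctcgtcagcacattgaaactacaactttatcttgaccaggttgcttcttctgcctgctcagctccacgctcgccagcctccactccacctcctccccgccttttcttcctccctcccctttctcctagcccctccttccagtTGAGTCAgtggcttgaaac
Krtdap: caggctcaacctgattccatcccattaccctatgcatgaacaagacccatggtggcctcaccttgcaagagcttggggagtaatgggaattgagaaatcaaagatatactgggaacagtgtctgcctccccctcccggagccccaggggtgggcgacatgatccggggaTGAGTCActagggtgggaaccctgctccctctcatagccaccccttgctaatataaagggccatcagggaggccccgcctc

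Of the stress keratins, Krt17 and Krt6a were also higher. Krt16 was too scarce to compare, with at most 4 UMIs in any WT DMBA/TPA cell and none in naive cells. Krt17, which runs on chromosome 11 from 100256217 to 100261029 (minus strand, GRCm38), had 2338 UMIs in all 31 WT DMBA/TPA cells (8042 CPM) and 103 UMIs in 10 naive cells (768 CPM), 10.5-fold higher (8.60 to 12.9). Per cell it ranged from 5.54 to 263 UMIs per 10000 in WT DMBA/TPA keratinocytes with a median of 57.9, and the naive median was 0 with 1 cell at 194. That naive cell held 56 of the 103 UMIs and had Krt5 but no Krt14 or Krt15. Without the richest cell of each library the Krt17 ratio was 19.4. Krt6a had 244 UMIs in 11 WT DMBA/TPA cells, 116 of them in 1 cell, and 1 UMI in naive cells (113-fold, 20.02 to 4465; 19.7-fold without the richest cells). Reads of Krt6a and its near copy Krt6b may be split by the counting, and Krt6b had 0 UMIs. Of the 28 wound-activated genes, 16 were detected in WT DMBA/TPA and 12 in naive keratinocytes, and only Krt17, Gjb2 and Krt6a reached 50 UMIs. Gjb2 and Krt6a passed that filter through WT DMBA/TPA cells alone, so the list's median log2 ratio of 6.28 over 3 genes is set in part by the filter. It was 3.33 over 8 genes at 20 UMIs or more and 0.62 over 17 genes with no filter. The value with no filter is set in part by the floor of 3 UMIs given to a gene with none. Naive cells held fewer UMIs in total, so a gene with few UMIs, all in WT DMBA/TPA cells, then gets a ratio below 1. Below 50 UMIs, Tnc, the wound-matrix protein tenascin C, had 43 and 2 UMIs (9.92-fold, 2.58 to 84.5), and Slpi, a protease inhibitor, 30 and 0.

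The chemokine Cxcl14, the hormone-like Pthlh and the lipid carrier Fabp5 were higher too. Cxcl14, a chemokine of epithelia, had 698 UMIs in 29 WT DMBA/TPA cells (2401 CPM) and 25 in 9 naive cells (186 CPM), 12.9-fold higher (8.65 to 20.05). The libraries as a whole also differed in it, with 893 CPM in the other WT DMBA/TPA barcodes and 80.4 CPM in the other naive CD45- barcodes, and the part of that background in the keratinocyte ratio was not tested. Pthlh, the parathyroid hormone-related protein made by keratinocytes, had 198 UMIs in 20 WT DMBA/TPA cells and 3 in 2 naive cells (30.5-fold, 10.3 to 149). Fabp5, the epidermal fatty acid-binding protein, had 1625 UMIs in 19 WT DMBA/TPA cells and 24 in 5 naive cells (31.2-fold, 20.9 to 48.9). Its WT DMBA/TPA cells were far apart, from 0 to 326 UMIs per 10000 with a median of 5.09. The other barcodes differed in Fabp5 as well, with 373 CPM in WT DMBA/TPA and 15.8 CPM in naive CD45-. A UMI was found in 24.3% and 3.73% of them. The part of that background in the Fabp5 ratio was not tested either.

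For genes with no UMI in any naive keratinocyte, the ratio was taken against the floor of 3 UMIs for the group. The lower bound of the exact interval is given beside it. Flrt3, a leucine-rich membrane adhesion protein, had 94 UMIs in 26 WT DMBA/TPA cells (14.5-fold higher, lower bound 11.5). Cmah, which makes the sialic acid Neu5Gc, had 88 in 24 cells (13.5-fold, lower bound 10.8). Pdzrn3, a ubiquitin ligase, had 68 in 22 cells (10.5-fold, lower bound 8.28). Acta2, smooth-muscle actin, had 93 UMIs in 12 WT DMBA/TPA cells (14.3-fold, lower bound 11.4). Tagln, an actin-binding protein, had 85 in 8 cells (13.1-fold, lower bound 10.4). No UMI of Acta1, Des, Myh11, Myl1 or Rgs5 was found in those 31 cells, and 5.83% of the other WT DMBA/TPA barcodes had an Acta2 UMI.

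**Figure D2:**
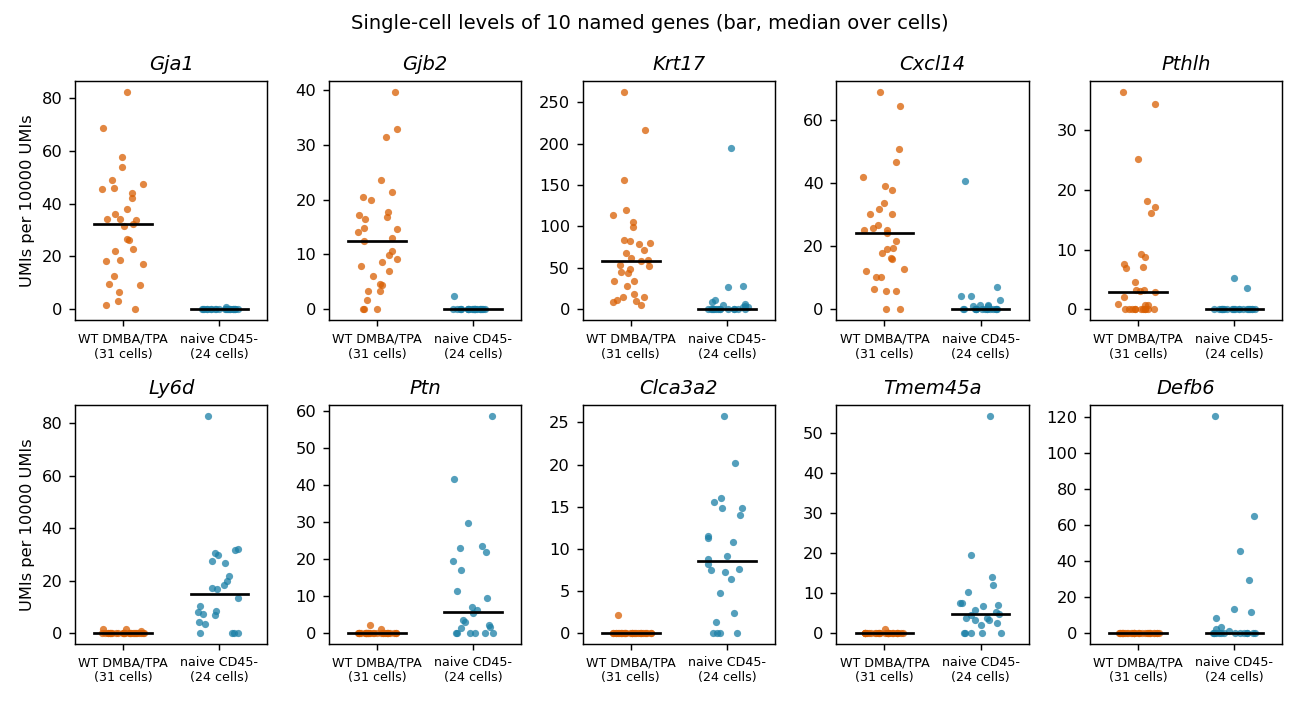
UMIs per 10000 in single keratinocytes for 5 genes higher and 5 lower after DMBA/TPA; each point is 1 cell (31 WT DMBA/TPA, 24 naive CD45-) and each bar the median over cells. Gja1 and Gjb2 lie near 0 in naive cells, and Ly6d, Ptn, Clca3a2 and Tmem45a lie near 0 in WT DMBA/TPA cells.

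Genes lower after DMBA/TPA were of 2 kinds, those spread over most naive cells and those carried by a few. Ly6d, a small membrane-anchored surface protein of keratinocytes, belonged to the first kind: it had 6 UMIs in 3 WT DMBA/TPA cells (20.6 CPM) and 303 UMIs in 20 naive cells (2259 CPM), 109-fold lower (49.7 to 301). The highest WT DMBA/TPA cell held 1.60 UMIs per 10000, and the highest naive cell held 83.0. Clca3a2, of the chloride channel accessory family, had 5 UMIs in 1 WT DMBA/TPA cell and 110 in 20 naive cells (47.7-fold lower, 19.8 to 150). Ptn, the growth factor pleiotrophin, had 3 and 106 UMIs (76.6-fold lower, 25.5 to 377), and Tmem45a, a transmembrane protein, had 2 UMIs in 1 cell and 90 UMIs in 19 cells (97.5-fold lower, 26.2 to 818). These 4 kept log2 ratios of -6.16, -5.71, -6.55 and -6.50 when only basal-range cells were compared, so the few suprabasal naive cells did not carry them.

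Defb6, an antimicrobial beta-defensin, had 0 UMIs in WT DMBA/TPA keratinocytes and 141 in 10 naive cells. Against the floor of 3 UMIs it was 102-fold lower (lower bound 81.8). The WT DMBA/TPA cells at 0.3% to 1% keratin did hold Defb6, at 282 CPM against 400 CPM in naive cells of that range, so the count of 0 holds for the most keratin-rich cells only. Ccl27a, a skin-homing chemokine for T cells, had 21 UMIs in 8 WT DMBA/TPA cells and 156 in 19 naive cells (16.1-fold lower, 10.2 to 26.7), and at 0.3% to 1% keratin 38.9 CPM against 880 CPM.

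The second kind followed the naive cells with Krt1 and Krt10. Krtdap, a secreted differentiation-associated protein, had 3 UMIs in 3 WT DMBA/TPA cells and 330 in 3 naive cells, of which 233 lay in 1 cell. Mt4, the metallothionein of stratified epithelia, had 0 UMIs in WT DMBA/TPA and 106 UMIs in 2 naive cells, and Calm4, a calmodulin-like protein, 0 and 120 UMIs, in 4 naive cells. Krt77, a type II keratin, had 0 and 135 UMIs, of which 98 lay in 1 naive cell. Among basal-range cells only, Krtdap had 3 UMIs in WT DMBA/TPA and 0 in naive cells, Calm4 and Krt77 each had 0 and 2 UMIs, and Mt4 had none in either library, so no lower level of these 4 genes was detectable there. Cst6, a protease inhibitor of the cornified layer and upper follicle, had 4 and 181 UMIs, of which 153 lay in 1 naive cell with 29 Krt10, 34 Krt79 and 50 Defb6 UMIs. Fam25c had 0 UMIs in WT DMBA/TPA and 108 in 9 naive cells, and Ly6g6c, of the same surface protein family as Ly6d, 5 and 84 UMIs.

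Cells at 0.3% to 1% keratin (57 WT DMBA/TPA and 10 naive) showed smaller gaps for several of these genes. Gja1 was at 1736 CPM in WT DMBA/TPA and 34.3 CPM in naive cells of that range, and Gjb2 at 963 and 45.7 CPM. Krt17 was at 3487 and 1120 CPM, Fabp5 at 1564 and 537 CPM, and Flrt3, absent from the naive keratinocytes above, at 302 and 68.6 CPM. Cxcl14 was at 1708 and 206 CPM and Pthlh at 303 and 80.0 CPM. No naive cell of that range had a UMI of Krt6a, Acta2, Tagln, Cmah or Pdzrn3, which were at 106, 121, 146, 117 and 76.5 CPM in WT DMBA/TPA. Among the lower genes, Ly6d was at 34.8 CPM in WT DMBA/TPA and 320 CPM in naive cells, Tmem45a at 34.8 and 171 CPM, and Clca3a2 at 91.8 and 469 CPM. Ptn was at 43.1 and 274 CPM, Cst6 at 6.95 and 137 CPM, and Ly6g6c at 15.3 and 68.6 CPM. Krtdap was the other way round, at 131 CPM in WT DMBA/TPA and 45.7 CPM in naive cells.

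The compartment lists gave a mixed picture. Of the 15 basal genes all were detected in both libraries and 7 reached 50 UMIs, with 1 higher, 3 lower and a median log2 ratio of -0.45. That median was 0.19 at a mitochondrial limit of 5%, 0.10 at a keratin threshold of 0.3% and -0.03 with no filter. Col17a1, the hemidesmosome collagen, had 30 UMIs in 9 WT DMBA/TPA cells and 83 in 20 naive cells (5.995-fold lower, 3.91 to 9.43), and Itga6, a hemidesmosome integrin chain, 21 and 32 UMIs (3.30-fold lower, 1.85 to 6.02). Dst, the cytolinker of hemidesmosomes, was 1.67-fold lower (1.19 to 2.34), while Itgb4 differed little (47 and 19 UMIs, ratio 1.14, 0.657 to 2.06). Trp63, the master transcription factor of stratified epithelia, was 1.68-fold higher (1.14 to 2.54), with 124 UMIs in 29 WT DMBA/TPA cells and 34 in 17 naive cells.

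Of the 14 bulge and outer root sheath genes 7 reached 50 UMIs, 5 were higher and 1 lower, with a median log2 ratio of 1.39. Besides Cxcl14 these were Sox9, a follicle stem-cell factor (184 UMIs in 27 WT DMBA/TPA cells and 35 in 14 naive cells, 2.43-fold, 1.68 to 3.59), Barx2 (2.62-fold, 1.60 to 4.52), Lhx2 (2.65-fold, 1.24 to 6.51) and Col18a1 (5.14-fold, 2.38 to 13.2). Postn, a matricellular protein, was 2.25-fold lower (1.26 to 4.01). Cd34, which marks the mouse bulge, had 26 UMIs in 11 WT DMBA/TPA cells and 1 UMI in naive cells. Cxcl14, Sox9, Barx2 and Col18a1 passed the 50-UMI filter through WT DMBA/TPA cells alone, so the filter can set the list median in part. The median was also 1.39 over 9 genes at 20 UMIs or more. Among all 1143 genes, 28.7% were higher and 12.9% lower.

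Of the 10 early suprabasal genes with 50 UMIs or more, 7 were lower and 2 higher, with a median of -1.81. This followed the naive suprabasal cells, since the median over the 6 genes left among basal-range cells was 0.37. The 2 higher genes were Fabp5 and Lypd3, and Lgals7, galectin-7, was high in both libraries (9786 and 11270 CPM, ratio 0.868, 0.816 to 0.925). In the upper follicle list 2 of 5 genes were higher, Krt17 among them, and 3 lower (Cst6, Defb6 and Krt79), with a median of -0.87. The median was 0.88 in basal-range cells, -4.92 without the richest cell of each gene and -2.99 in Krt15-rich cells. Krt79 itself had 76 UMIs in WT DMBA/TPA cells, 74 of them in 1 cell that had no Krt5, and 64 UMIs in 7 naive cells.

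Adhesion genes differed little as a list. Of 10 desmosome and adherens genes, 1 was higher and 2 lower, with a median log2 ratio of 0.02. Dsp, desmoplakin, had 406 UMIs in 29 WT DMBA/TPA cells and 170 in 23 naive cells (ratio 1.10, 0.919 to 1.33). Ctnnb1, beta-catenin, was 2.34-fold higher (1.57 to 3.58), and Cdh1, E-cadherin, 1.94-fold lower (1.20 to 3.15).

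AP-1 and other early-response genes were lower in the WT DMBA/TPA cells, 3 weeks after treatment. Of 13 with 50 UMIs or more, 12 were 1.5-fold or more lower and 0 higher, with a median of -0.99, and the 17 genes together made up 0.817% of UMIs in WT DMBA/TPA keratinocytes and 1.64% in naive ones. Fos had 448 UMIs in 23 WT DMBA/TPA cells and 395 in 22 naive cells (1.91-fold lower, 1.66 to 2.19), Zfp36, which destabilises cytokine mRNAs, was 4.02-fold lower (3.01 to 5.39) and Junb 2.52-fold lower (2.07 to 3.06). Jun was the exception, at a ratio of 0.709 (0.621 to 0.810). The other kept barcodes differed in the same direction, at 1.62% and 2.29%, and the part of this library-wide difference in the keratinocyte ratios was not tested.

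MHC class I genes were lower in keratinocytes, while B2m and H2-D1 were higher in the other barcodes of the WT DMBA/TPA library (1724 and 2488 CPM) than in those of the naive CD45- library (1171 and 1672 CPM). B2m had 373 UMIs in all 31 WT DMBA/TPA cells (1283 CPM) and 303 UMIs in all 24 naive cells (2259 CPM), 1.76-fold lower (1.51 to 2.05), and H2-D1, H2-K1 and the immunoproteasome subunit Psmb8 were 1.80-, 1.74- and 1.84-fold lower. These were the 4 of 29 interferon-gamma response genes with 50 UMIs. Over the other kept barcodes the 29 genes made up 1.06% in WT DMBA/TPA and 0.399% in naive CD45- skin, but the WT DMBA/TPA library holds immune cells and the naive one was sorted against them. H2-Ab1, of MHC class II, had 20 UMIs in WT DMBA/TPA and 1 UMI in naive cells (9.23-fold, 1.48 to 383).

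Among growth and stress pathways, Ccnd1, cyclin D1, had 117 UMIs in 24 WT DMBA/TPA cells and 8 in 5 naive cells (6.75-fold higher, 3.31 to 16.00). Hras was 1.41-fold higher (1.03 to 1.95) and Emp1 7.59-fold lower (4.29 to 14.2). Hif1a, the hypoxia-inducible factor, was 5.87-fold higher (2.73 to 15.01), with 89 UMIs in 27 cells and 7 in 7 cells, and the glycolytic genes Gapdh and Ldha were 2.04-fold (1.59 to 2.65) and 1.66-fold (1.15 to 2.45) higher, 3 of 7 in that list. Notch1 was 1.89-fold (1.19 to 3.12) and its ligand Jag1 2.88-fold (1.36 to 7.05) higher. Its target Hes1 was at 1.64-fold, with an interval that includes 1 (0.931 to 3.07). These were the 3 of 17 Notch, Wnt and hedgehog genes with 50 UMIs or more. All 3 passed that filter through WT DMBA/TPA cells alone, so it can set the list median of 0.92 in part. That median was 0.30 over 6 genes at 20 UMIs or more. Of 4 p53 targets compared, 1 was higher and 2 were lower, with a median log2 ratio of -0.48. Bax was 3.16-fold higher (1.42 to 8.29) and Cdkn1a 3.05-fold lower (1.71 to 5.54). Btg2, with 216 UMIs in WT DMBA/TPA and 225 in naive cells, was lower at a ratio of 0.443 (0.366 to 0.536). Phlda3 was at 1.16 (0.746 to 1.85). The p53 list median was 0.40 over 8 genes at 20 UMIs or more and 0.36 over 3 genes among basal-range cells. Lcn2, the iron-binding antimicrobial lipocalin, was 7.91-fold higher (3.72 to 20.1), with 120 and 7 UMIs, of which 63 lay in 1 WT DMBA/TPA cell.

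**Figure D3:**
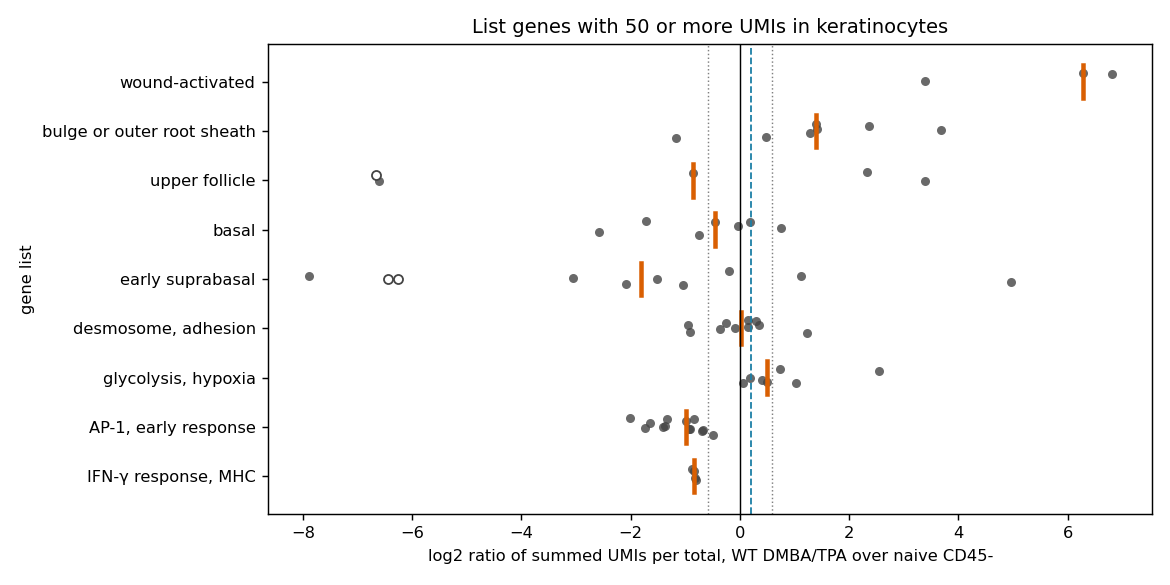
Log2 ratios of summed UMIs per total, WT DMBA/TPA over naive CD45- keratinocytes, for list genes with 50 or more UMIs; open points have 0 UMIs in one library (ratio set by the floor of 3), orange bars are list medians, dotted lines mark 1.5-fold and the dashed line the median of 1143 genes, 0.19. The AP-1 and interferon-gamma lists lie on the lower side, and the bulge and wound lists mostly on the higher side. Most higher genes of the bulge and wound lists passed the 50-UMI filter through WT DMBA/TPA cells alone.

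Cycling cells, those with at least 5 of 26 cell-cycle genes, were 1 of 31 in WT DMBA/TPA (3.23%, 0.0816% to 16.7%) and 5 of 24 in naive skin (20.8%, 7.13% to 42.2%), and the intervals overlap. Thinned to 2000 UMIs and read as at least 2 genes, they were 1 of 31 and 6 of 24. The size of the gap depended on the keratin threshold: at 0.3% keratin, 19 of 88 WT DMBA/TPA cells (21.6%) and 9 of 34 naive cells (26.5%) were cycling. The 1 WT DMBA/TPA cell had 12 cycle genes, the highest depth (23153 UMIs) and 0.130% mitochondrial UMIs. The naive cell with most had 23 cycle genes, with 11 Mki67 and 14 Top2a UMIs.

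The 31 WT DMBA/TPA cells were not uniform. The 17 cells with at least as much Krt14 as Krt15 (median 10731 UMIs) were set against the 14 with more Krt15 (median 7332 UMIs), a split chosen after the values were seen. Of 776 genes with 50 UMIs or more, 104 (13.4%) were 1.5-fold or more higher in the Krt14-rich cells and 88 (11.3%) lower. Since the split uses the cells themselves, these are descriptions, with no test.

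Of 5 early suprabasal genes with 50 UMIs or more, 4 were higher in the Krt14-rich cells and 0 lower. Krt6a, of the wound list, had 243 UMIs in 10 Krt14-rich cells and 1 UMI in the Krt15-rich cells, and Fabp5 1597 UMIs in 14 and 28 in 5 cells (36.2-fold, 24.9 to 54.6). The suprabasal secreted proteins Sbsn (262 and 13 UMIs, 12.8-fold, 7.34 to 24.3) and Dmkn (165 and 8 UMIs, 13.1-fold, 6.48 to 30.8) and the galectin Lgals3 (10.1-fold, 6.47 to 16.5) went with them, as did the calcium-binding S100a6 (4.44-fold) and the membrane scaffold Anxa2 (3.80-fold). Krt17 was 2.74-fold higher (2.47 to 3.05) but present in all cells of both kinds. Of 12 AP-1 and early-response genes 9 were higher and 0 lower, with Klf6 at 7.70-fold and Fos at 1.90-fold. In WT DMBA/TPA cells at 0.3% to 1% keratin most of these 9 were closer to equality. Fos was at 1.15, Jun at 1.40, Junb at 1.18, Egr1 at 1.10, Dusp1 at 1.05 and Zfp36 at 1.42. Klf6 was 2.26-fold and Atf3 1.96-fold higher there, and Fosb widened from 2.39-fold to 3.28-fold. Of the genes not past 1.5-fold in the split, Ier2 was 1.80-fold and Ier3 2.04-fold higher there, and Jund was at 1.11.

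Several genes were lower in the Krt14-rich cells. Tagln had 0 UMIs in the Krt14-rich cells and 85 in 8 Krt15-rich cells. Against the floor of 3 UMIs it was 44.7-fold lower in Krt14-rich cells (lower bound 35.6). Acta2 had 5 and 88 UMIs, in 2 and 10 cells (27.8-fold lower, 11.4 to 87.6). The transporter subunits Slc7a8 (12.8-fold lower) and Slc3a2 (4.14-fold lower), which pair in amino-acid uptake, the protease inhibitor Timp3 (6.57-fold lower) and the basement-membrane collagen Col18a1 (5.26-fold lower) followed. Gjb2 (2.45-fold lower, 1.96 to 3.07) and Cxcl14 (1.83-fold lower, 1.57 to 2.13) were in most cells of both kinds. Krt79 was also lower, but only through the 1 cell that holds 74 UMIs.

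The split could be read again in the 57 WT DMBA/TPA cells at 0.3% to 1% keratin, which did not enter it, though they are of the same library. There, 22 cells had at least as much Krt14 as Krt15. Of the 12 named genes on each side, 6 higher and 10 lower ones passed 1.5-fold in the same direction. Among all 2083 genes counted in these cells, 363 were 1.5-fold or more higher in the Krt14-rich cells and 390 lower. Krt6a (76 UMIs in Krt14-rich and 0 in Krt15-rich cells), Dmkn (11.2-fold higher) and Tagln (2 and 103 UMIs) kept wide ratios, whereas Fabp5 was 1.78-fold higher, Sbsn 1.26-fold and Krt17 0.988-fold. Krt79 turned round, with 72 UMIs in Krt14-rich and 0 in Krt15-rich cells.

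Leiden clustering of the 31 cells gave 3 clusters at resolution 1.0, 1 at 0.5 and 5 at 1.5. At 1.0, 12 Krt14-rich cells formed a cluster led by Fabp5, Lgals3, Sbsn and Krt6a, 10 cells (9 of them Krt15-rich) a cluster led by Krt15, Slc7a8, Slc3a2, Igfbp4, Tagln and Acta2, and 9 cells a cluster led by Krt15 and Gstm5. The clusters are named by leading genes only.

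**Figure D4:**
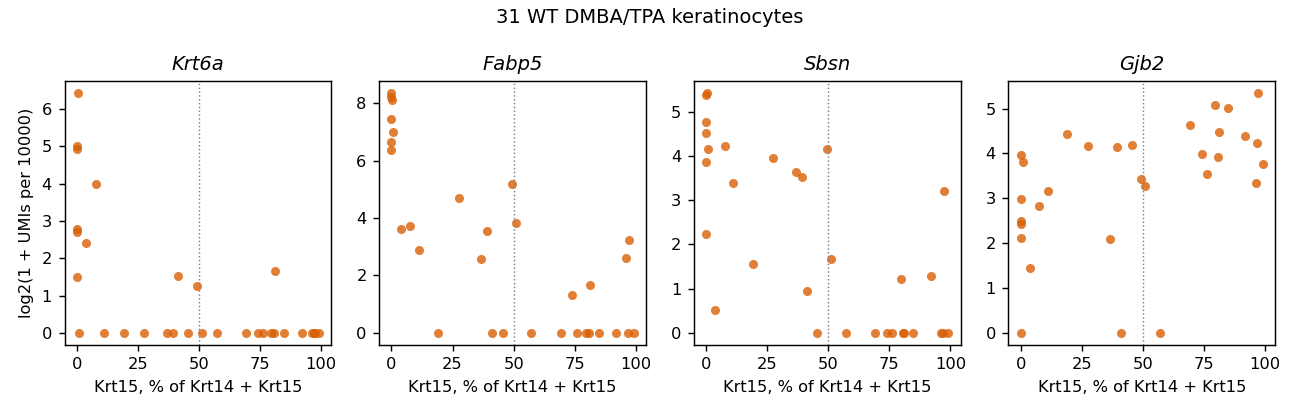
Log2(1 + UMIs per 10000) of 4 genes in the 31 WT DMBA/TPA keratinocytes against the Krt15 share of their Krt14 and Krt15 UMIs; each point is 1 cell and the dotted line marks equal amounts. Krt6a, Fabp5 and Sbsn are highest in cells with almost no Krt15, while Gjb2 is spread across the axis.

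The 2 Cd226-/- cells were of different kinds and were compared with nothing. The first, with 42132 UMIs, had 730 Krt14, 510 Krt79, 1988 Fabp5, 97 Ly6d and 72 Defb6 UMIs, along with 972 of Elovl4, a fatty-acid elongase, and 119 of Cidea and 53 of Awat1, lipid-droplet and wax-ester genes of the sebaceous gland. No Krt5, Krt15, Krt6a or Cxcl14 UMI was found in it. The second, with 7706 UMIs, had 55 Krt15, 31 Krt17, 23 Krt5, 18 Gjb2, 19 Acta2, 18 Tagln and 11 Cxcl14 UMIs, and 6 cycle genes.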

How the data were processed

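Per the submitters' processing notes, Cell Ranger 3.1.0 and build mm10 were used. The deposited counts are raw UMI counts per gene and barcode from the authors' pipeline, for 31053 genes and 2 antibody tags in 4 libraries, with gene UMIs from 42043869 to 81406730 per library. Barcodes were filtered as stated, doublets were called with Scrublet and not removed, and counts of keratinocytes were summed per library. Ratios with fewer than 50 UMIs over both groups are given only for list genes. With 1 library per group no test was made, p-values were not computed, and intervals cover counting error between these libraries only. A count of 0 was set to 3 UMIs per group. The ratio script was tested on simulated data. The 12 genes named in each direction had the interval bound farthest from equality among genes past 1.5-fold under total and median-ratio scaling and without the richest cell, at a level no lower than in the library's other cells, leaving out mitochondrial, ribosomal, hemoglobin, sex-linked, predicted and rule genes. The members and the 32 lists were chosen with earlier results of these data known. Coordinates of genes are GENCODE GRCm38. Python 3.11.15, scanpy 1.11.5, numpy 2.4.6 and scipy 1.17.1 were used. Cd226-/- over WT and suprabasal over basal cells in WT were planned, and were not compared because 2 and 0 cells were found.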

Additional observations from a re-analysis of the deposited data

How the results depend on the processing

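All values rest on 1 library per group and on few cells, and the cause of each change below was not tested. No paired analysis was possible because each group is 1 library and no result comes from a test. A keratin threshold of 2% left 0 Cd226-/-, 3 WT DMBA/TPA and 10 naive CD45- cells and that of 5% left 0, 0 and 0, so no share was computed at 5%. A mitochondrial limit of 5% left 1 Cd226-/- and 8 naive CD45- cells. Chosen after seeing the data, 0.3% gave 4 Cd226-/-, 88 WT DMBA/TPA and 1 naive CD45+ cell. The WT DMBA/TPA cycling share was 0% at 2% and 21.6% at 0.3%. Genes higher and lower in WT DMBA/TPA than in naive cells numbered 971 and 451 at 20 UMIs or more, 2298 and 4433 with no filter, 47 and 50 at the 2% threshold, 1056 and 432 at 0.3%, and 108 and 90 among cells with more Krt15 than Krt14. The genes counted were 2968, 11356, 269, 3408 and 496, against 1143, and lower genes outnumbered higher ones with no filter and at 2%. With no filter, a gene with a few UMIs in WT DMBA/TPA cells and none in naive cells counts as lower. This is because the naive count is set to 3 UMIs and the naive total is smaller. The direction of the no-filter counts, and of no-filter list medians with such genes, therefore cannot be read. Krt14-rich over Krt15-rich counts were 372 and 400 at 20 UMIs or more, and 363 and 390 in the cells at 0.3% to 1%. Clusters numbered 1 at resolution 0.5 and 5 at 1.5. The early suprabasal and upper follicle medians turned to 0.37 and 0.88 among basal-range cells, the Notch, Wnt and hedgehog median to -0.28 with no filter, and the log2 ratio of Krt6a to -0.32 among Krt15-rich cells, where it rests on about 1 UMI per library. Of the 24 named genes, 24 stayed past 1.5-fold in their direction at 0.3%, which includes the same cells. Among Krt15-rich cells, which are a part of the same cells, 23 did. The naive Krt15-rich cells include 1 suprabasal cell with 235 Krt10 UMIs, so genes of suprabasal cells can stay lower through it. Median-ratio scaling and the richest cell were part of the selection of the 24 genes. Other settings for Cd226-/- over WT and for suprabasal over basal cells were not run, as 2 and 0 cells were found.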
